A study of Rattus norvegicus with 75 samples.

Results

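The cortical thick ascending limb (cTAL) was compared between rats fed lithium and rats fed control food for 72 h, over 22 of the 75 sequenced libraries of kidney tubule in the series. The comparison took every library of this segment: 10 labelled cTAL_Li_72h and 12 labelled cTAL_Ctr_72h. The rats were male and of the outbred Sprague-Dawley strain, with a weight of 120 to 160 g. Food held either no lithium or lithium chloride at 40 mM per kg, and no other treatment or allele is named in either group. Messenger RNA was measured by RNA sequencing of amplified cDNA, in segments dissected by hand, so that cells adhering to the tubule were sampled with it. The series asks which signals start nephrogenic diabetes insipidus under lithium, a disorder in which the collecting duct stops answering vasopressin. The cortical collecting duct (CCD) at the same time, with 17 control and 19 lithium libraries, served here for comparison.

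The thick ascending limb takes up sodium, potassium and chloride without water, which dilutes the tubular fluid and drives the paracellular uptake of calcium and magnesium. Its apical cotransporter is Slc12a1, its potassium channel Kcnj1, a subunit of its chloride channels Bsnd, and its best-known secreted product uromodulin (Umod). Lithium inhibits inositol phosphatases and the kinase Gsk3b, and its best-known renal target is the collecting duct. The genes that mark dividing cells act in order: G1/S genes copy DNA, and G2/M genes build the spindle and split the chromosomes. In resting cells many G2/M genes are kept silent by a repressor complex that binds the element TTTGAA, and many also carry CCAAT boxes, which bind the factor NF-Y.

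The libraries carried the identity on their label. Umod lay at 45255 to 79244 TPM (a transcript's share of all transcripts, scaled to a common total) in control and 49209 to 81000 in lithium libraries, and between 10888 and 12290 genes had at least 1 TPM in a library. Markers of other cells were present: the mean log2(TPM + 1) of immune markers was 4.53 to 5.87 in control and 4.15 to 5.84 in lithium libraries, against 1.18 to 3.52 in control CCD. Endothelial markers lay at 3.19 to 4.48 in control and 2.05 to 4.68 in lithium libraries, with summed levels of 278 to 763 and 141 to 942 TPM. Proximal tubule markers lay at 2.85 to 4.61 and 3.10 to 5.51. Libraries were also grouped into sets that shared the high or low state of 12 genes. The number of sets was fixed at 4 control and 4 lithium sets, after earlier results of these data had shown such sets. Both segments were pooled to find them. Each set held libraries of both, which is therefore no separate support for the sets. The control sets held cTAL libraries 1, 2 to 5, 6 to 8 and 9 to 12, and the lithium sets held libraries 1 to 2, 3 to 5, 6 to 7 and 8 to 10. Control set 4 and lithium set 4 stood apart, with 1152 to 1347 genes without a symbol of their own at 1 TPM or more, against 800 to 940 in the other cTAL libraries. No label ties a library to its rat. The p-values over libraries therefore measure only the spread between them, which may be technical, and each main result is also given on the means of these sets.

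Over libraries, limma with Benjamini-Hochberg (BH) adjustment called 82 of 11702 genes at an adjusted p under 0.05, which is 0.701% of those tested, with 13 higher (0.111%) and 69 lower (0.59%) under lithium. At an unadjusted p under 0.05 there were 1466 genes. Of the 69 lower genes 16 belonged to the 2 cell cycle lists and 49 to no list, and the higher genes included the secreted defensin Defb1. In CCD the same test called 4338 of 11644 genes, or 37.3%, with 22% higher and 15.2% lower. On set means of CCD it was 7.83%, with 6.12% higher and 1.71% lower. The median standard error of a log2 fold was 0.163 in cTAL and 0.113 in CCD. On set means, 1 of 13083 genes was called in cTAL, or 0.00764%, and it was Defb1. That fit took both segments together, while the 82 genes come from a fit of cTAL libraries alone. It treated the cTAL and CCD means of a set as separate units. All 82 genes kept their direction on set means, and 79 had an unadjusted p under 0.05 there. Set means did not overlap between lithium and control for 49 of the 82, against 2.32% of all genes tested. The 82 genes were picked on the same libraries that the set means average. These counts on set means follow in part from that choice and are no separate support for the 82. Single libraries did not overlap for 2 of them, Rsrp1 and Uqcrfs1, which is also the count over all genes tested (0.0171%). A joint fit of the 4 groups of both segments, which share 1 estimate of the spread, called 306 genes (2.34%) in cTAL. With median-of-ratios scaling 21 genes were called higher and 54 lower, and with quantile normalization 24 and 60. The share of higher calls thus moved from 15.9% to 28% and 28.6%. Folds leaned negative over all genes in the main fit, in 7660 of 11702, with a median log2 of -0.08. That median became 0.007 with median-of-ratios scaling and 0.0003 with quantile normalization. Without control set 4, or without lithium set 2, 1 gene was called each time (Wfdc1 and Rsrp1). The 77 and 82 of these genes that were still tested all kept their direction and an unadjusted p under 0.05. These fits reuse libraries that picked the genes, so this is no separate support. The fit gave 23 calls without lithium set 1, 196 without control set 3 and 223 without lithium set 3.

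The G2/M, spindle and kinetochore genes stood lower under lithium in cTAL than in control, and the same genes stood higher under lithium in CCD. Of 32 listed genes 26 were tested in cTAL, and all 26 had a negative fold, where 7660 of all 11702 genes did. The median log2 was -1.07 against -0.08 for all genes tested. Over libraries 12 of the 26 fell and none rose, where 0.59% of all genes tested fell, and no call in the list was left without control set 4 or without lithium set 2 (unadjusted p under 0.05 in 23 of 24 and 28 of 29). With sets as a random block none of the 26 was called either, and 20 had an unadjusted p under 0.05. On set means none of the list was called in cTAL, while 26 of 31 had an unadjusted p under 0.05 and their median was -0.96. In CCD 31 of 31 rose over libraries, against 22% of all genes there, with a median of 1.55. On set means of CCD 28 rose, against 6.12% of all genes. Filtering for at least 1 TPM left 5 listed genes untested in cTAL, and 1 more matched no row of the table. A gene could pass this filter through the control libraries alone, the group where these genes were higher. Without the filter all 31 had a negative fold and an unadjusted p under 0.05, and the median was -1.01. Of them 5 were called lower, where 28 of all 22984 genes were. In bulk samples, fewer dividing cells and less of these transcripts per cell cannot be told apart.

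Promoters of 4 genes that fell are shown because genes of cell division moved together. These 4 promoters were picked by hand and all hold both elements, which not every gene that fell does. They are the 150 bases before the RefSeq start site in the GRCr8 assembly, which is not the build of the expression values. Capitals mark TTTGAA and CCAAT on either strand, so that TTCAAA and ATTGG are the same elements read from the other strand, and no pair of marked elements overlaps.
Cdk1 (chr20:19265143-19265292, plus strand): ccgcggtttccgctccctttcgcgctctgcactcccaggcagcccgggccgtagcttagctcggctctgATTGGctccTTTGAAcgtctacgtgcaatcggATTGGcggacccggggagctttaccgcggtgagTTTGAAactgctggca
Kifc1 (chr20:5000779-5000928, plus strand): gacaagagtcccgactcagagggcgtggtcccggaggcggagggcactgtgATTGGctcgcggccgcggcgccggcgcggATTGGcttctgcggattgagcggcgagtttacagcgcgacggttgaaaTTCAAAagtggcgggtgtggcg
Prc1 (chr1:143659331-143659480, plus strand): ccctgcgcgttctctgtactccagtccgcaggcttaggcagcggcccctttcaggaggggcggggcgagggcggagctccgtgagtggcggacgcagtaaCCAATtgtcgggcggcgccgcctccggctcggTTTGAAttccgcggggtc
Spc25 (chr3:74396719-74396868, minus strand): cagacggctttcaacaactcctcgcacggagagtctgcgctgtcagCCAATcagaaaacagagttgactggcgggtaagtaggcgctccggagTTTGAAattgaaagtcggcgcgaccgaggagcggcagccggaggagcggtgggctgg
Kifc1 and Spc25 stood outside the list and were taken from the genes with the largest falls. In Cdk1 a TTTGAA began 16 bases before the start, in Prc1 18, in Kifc1 22 and in Spc25 57. In Prc1 a CCAAT began 50 bases before the start and in Cdk1 49 bases before it. In the 250 bases before the start, both elements were found in 11 of the 22 tested G2/M genes with a promoter in the table, or 50%. Of the 12 called G2/M genes 9 had a promoter there, and 6 of these 9 held both elements (66.7%). Both were found in 5.76% of all 27457 promoters of the same length. For G1/S genes it was 0 of 18. A match is a description of these letters and shows no binding.

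Ccna2, which encodes cyclin A2 and drives S phase and entry into mitosis, had the largest fall of the list (ENSRNOG00000015423). Control libraries ran from 3.22 to 24.8 TPM with a median of 9.04, and lithium libraries from 0.12 to 8.22 with a median of 1.38. Libraries 6, 7 and 10 of the lithium group overlapped the controls, and the other 7 lay below every control. The mean went from 9.82 ± 5.31 TPM (SD, n = 12) to 2.20 ± 2.49 (SD, n = 10), a log2 fold of -1.97 (SE 0.328, limma adjusted p = 0.00693). By set, the control means were 10.6, 12.7, 6.29 and 9.40 TPM, and the lithium means 0.705, 1.49, 5.83 and 1.5. No lithium set reached a control set, and the adjusted p on set means was 0.0716. Lithium set 3 stood closest to the controls here.

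Cdk1, the kinase that starts mitosis, ran from 4.16 to 29.0 TPM in control (median 16.1) and from 0.21 to 12.2 in lithium libraries (median 5.09). The groups overlapped, and 4 of the 10 lithium libraries lay below every control. No lithium set mean reached a control set mean. Its log2 fold was -1.47 (SE 0.32, limma adjusted p = 0.027). Ube2c, which loads ubiquitin for the anaphase-promoting complex, lay at 7.44 to 46.9 TPM in control and 2.09 to 14.3 in lithium libraries. Cdkn3, a phosphatase that acts on cyclin-dependent kinases, went from 12.0 ± 4.89 to 3.88 ± 3.28 TPM (SD, n = 12 and 10). The log2 folds of Ube2c and Cdkn3 were -1.56 and -1.59 (limma adjusted p = 0.0134 and 0.0218). Prc1, which bundles microtubules of the central spindle, and Kif20a, a motor of the same structure, both fell by 1.45 on the log2 scale. Nusap1 fell by 1.18 and Ndc80, a kinetochore subunit, by 1.32. Mki67, the proliferation marker Ki-67, lay at 0.53 to 4.35 TPM in control and 0.18 to 2.15 in lithium libraries, with a log2 fold of -0.98. These levels are low, and the log2(TPM + 1) scale understates changes of genes near 1 TPM.

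Other genes of cell division that fell stood outside both lists. They were named for the size of their fall. Kifc1, a spindle motor, ran from 2.27 to 15.8 TPM in control and from 0.12 to 4.85 in lithium libraries, with a log2 fold of -1.58 (SE 0.285, limma adjusted p = 0.0103). For Kifc1 6 of the 10 lithium libraries lay below every control. Spc25, a partner of Ndc80, fell by 1.52, Pbk, a mitotic kinase, by 1.71, and Cdca3, which helps trigger entry into mitosis, by 1.49. Tubb6, a beta-tubulin, fell by 1.60, and 7 of its 10 lithium libraries lay below every control.

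**Figure D1:**
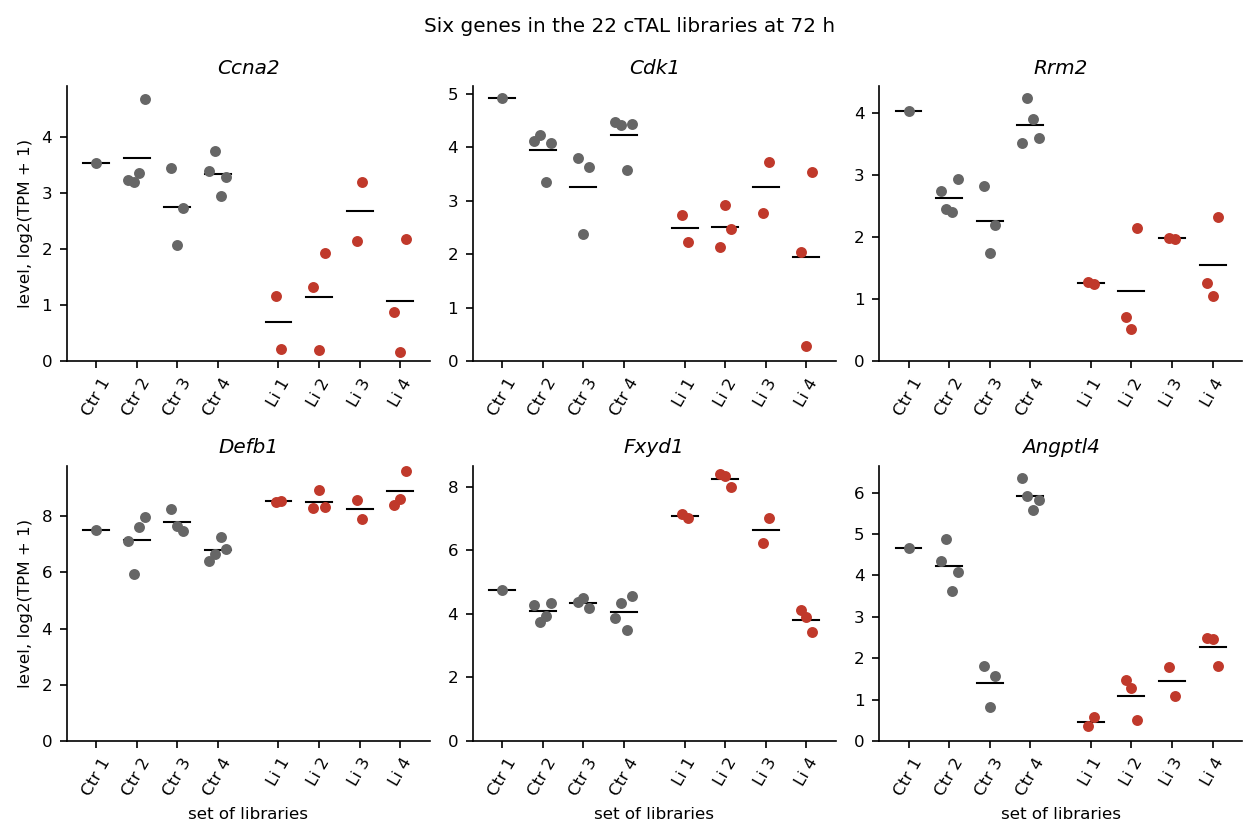
Level of 6 genes, log2(TPM + 1), in each cTAL library, by set; points are libraries (grey control, red lithium) and bars are set means. For Ccna2 the lithium set means lie below all control set means, Defb1 lies above them in every lithium set, and Fxyd1 in lithium set 4 lies at the control level.

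The G1/S and DNA replication genes moved less evenly in cTAL. Of 23 tested members 22 had a negative fold, where 7660 of all 11702 genes did, and the median log2 was -0.57. Over libraries 4 fell, against 0.59% of all genes tested: Rrm2, Tk1, Uhrf1 and Ccne2. Without the filter on low values 28 of 29 had a negative fold and 2 fell. On set means none was called and 11 of 29 had an unadjusted p under 0.05. Rrm2, the small subunit of ribonucleotide reductase, which makes deoxynucleotides, ran from 2.34 to 17.9 TPM in control and from 0.43 to 4.02 in lithium libraries. In 6 lithium libraries Rrm2 lay below every control, and its log2 fold was -1.59 (SE 0.293, limma adjusted p = 0.0103). Tk1, thymidine kinase, went from 28.0 ± 11.4 to 11.0 ± 3.96 TPM (SD, n = 12 and 10), with -1.23. Uhrf1, which copies DNA methylation onto new strands, and Ccne2, the G1/S cyclin E2, fell by 1.16 and 1.06. Pcna, the sliding clamp of DNA polymerase, was not called, at 83.4 ± 19.8 and 70.3 ± 9.72 TPM (log2 -0.22, SE 0.116, limma adjusted p = 0.443). In CCD 29 of 29 of these genes rose over libraries, against 22% of all genes, with a median of 1.28. On set means of CCD 24 rose, against 6.12% of all genes. Without control set 4 and lithium set 4 no G1/S gene was called in cTAL, 6 of 23 had an unadjusted p under 0.05, and the median was -0.21.

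The difference between the lithium effects of the segments was tested by itself for these lists. Of 31 G2/M genes all 31 had a lower effect in cTAL than in CCD over libraries, and 28 did on set means. The background was 11.8% of 13083 genes over libraries and 3.34% on set means. Of 29 G1/S genes 27 were lower over libraries and 23 on set means. For Ccna2 the difference was a log2 of -3.77 (SE 0.307), with a limma adjusted p of 4.84e-15 over libraries and 0.000325 on set means. For Ube2c it was -3.70, and for Cdk1 -3.33 (limma adjusted p = 0.000325 on set means for both). In CCD itself Ccna2 went from 21.4 to 74.6 TPM and Cdk1 from 49.3 to 174.6.

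**Figure D2:**
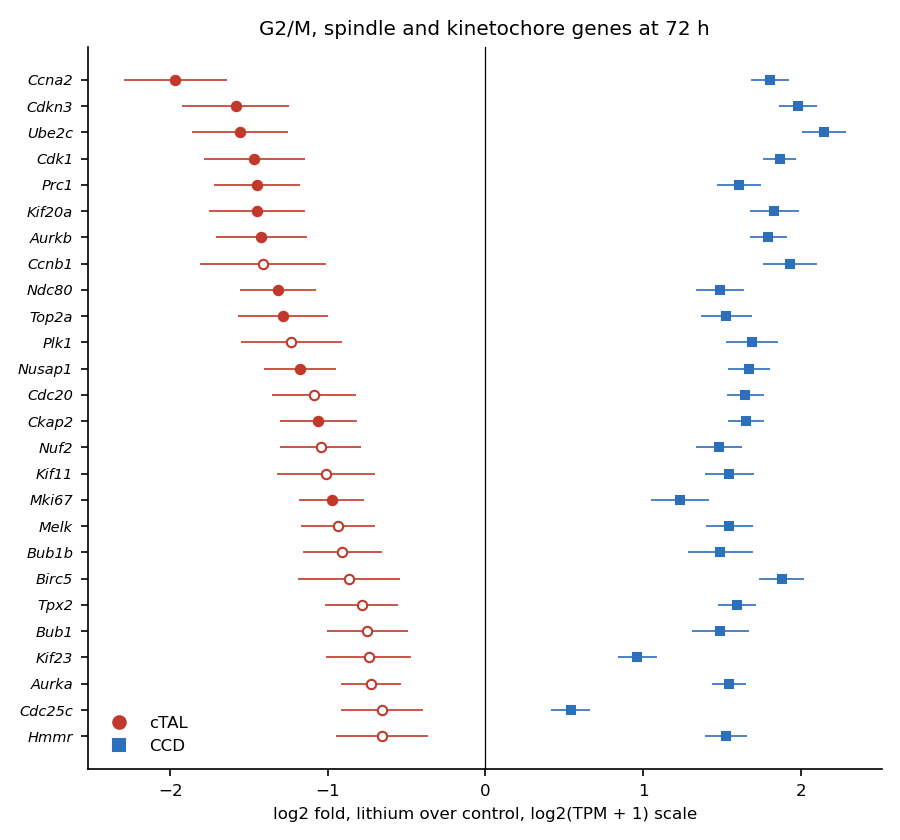
Log2 fold of lithium over control for the 26 G2/M genes tested in cTAL; red circles are cTAL, blue squares CCD, whiskers 1 standard error, and filled symbols an adjusted p under 0.05. Every cTAL estimate lies left of 0 and every CCD estimate right of it.

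Endothelial markers leaned lower under lithium in both segments. In CCD 9 of 10 tested markers fell over libraries, against 15.2% of all genes, with a median log2 of -0.86. On set means of CCD 1 fell, against 1.71% of all genes. In cTAL 12 were tested, such as Kdr, Flt1, Tie1 and Egfl7. All 12 had a negative fold, where 7660 of all 11702 genes did. Their median log2 was -0.84, 9 had an unadjusted p under 0.05 and none was called, where 0.701% of all genes were. Without control set 4 and lithium set 4 the median was -0.48. Kdr, a receptor for vascular growth factor, lay at 8.42 to 25.0 TPM in control and 0.91 to 31.4 in lithium libraries. With the endothelial marker level of each library as a covariate, 2 genes were called in all, Rassf10 and an unnamed transcript. All 82 genes kept their direction and an unadjusted p under 0.05, but they were picked on these same libraries, so this is no separate support. The G2/M median was -0.88, with no member called and 22 of 26 at an unadjusted p under 0.05. The G1/S median moved from -0.57 to -0.28 with this covariate, with no member called and 8 of 23 at an unadjusted p under 0.05. The endothelial level itself leaned lower under lithium, so in this fit its part and that of lithium cannot be told apart. With the immune level as a covariate 71 genes were called, and 11 of 26 G2/M genes fell. With the proximal tubule level it was 68 genes and 12 of 26. Without control set 4 and lithium set 4, 6 genes were called in all and no G2/M gene, with a median of -1.01. Those 2 sets compared with each other alone gave 658 calls and 12 of 28 G2/M genes lower, and this compares 1 set with 1 other set.

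**Figure D3:**
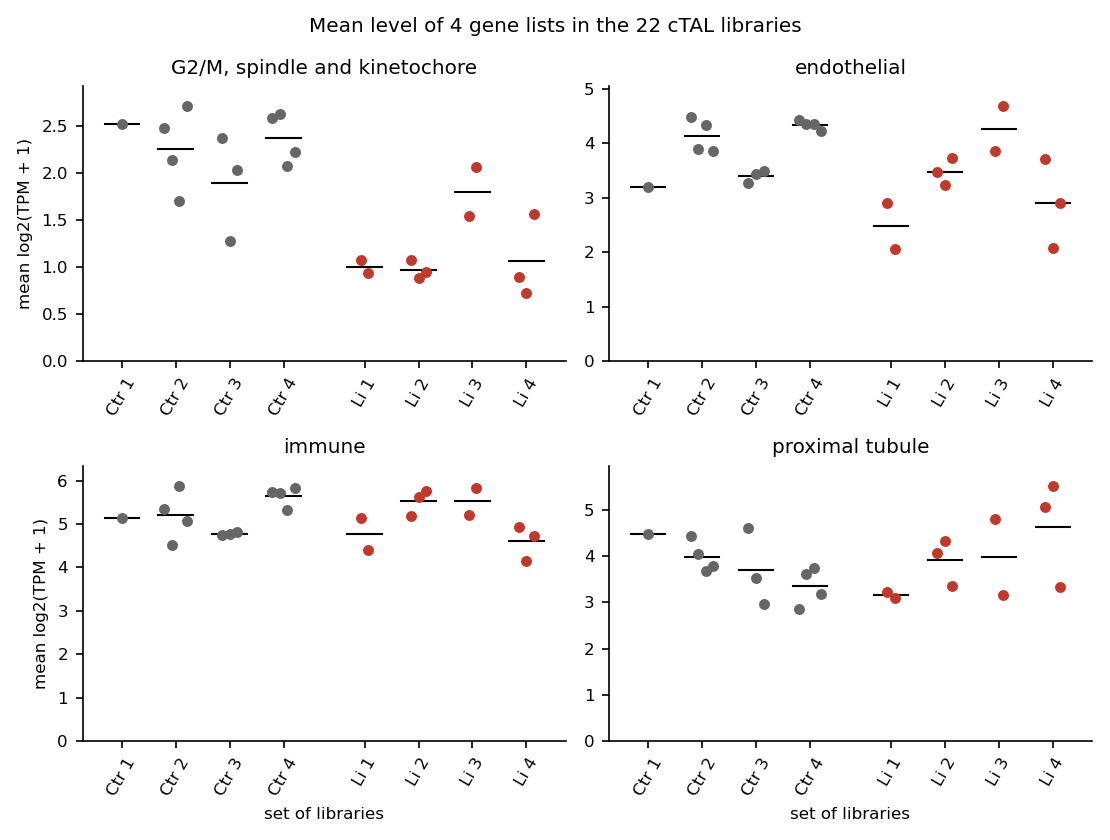
Mean log2(TPM + 1) of 4 gene lists in each cTAL library, by set; points are libraries (grey control, red lithium) and bars are set means. The G2/M level is lowest in lithium sets 1, 2 and 4, endothelial levels range from 2.05 to 4.68 under lithium, and immune levels overlap between groups.

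Among the higher genes, Defb1 was the one called both over libraries and on set means. It encodes beta-defensin 1, an antimicrobial peptide that tubule cells secrete into urine (ENSRNOG00000013768). Control libraries ran from 61.1 to 302 TPM with a median of 165, and lithium libraries from 238 to 780 with a median of 368. Lithium library 7, at 238 TPM, lay below control libraries 5 and 6, and the other 9 lithium libraries lay above every control. The mean went from 163 ± 69.8 (SD, n = 12) to 399 ± 149 TPM (SD, n = 10), a log2 fold of 1.35 (SE 0.224, limma adjusted p = 0.00693). The set means gave 1.23 with a limma adjusted p of 0.0436, where control set 1 is a single library. Over libraries the fold was 1.13 without control set 4, 1.37 without lithium set 2, 1.07 with the endothelial covariate and 1.00 without control set 4 and lithium set 4, and in these 4 fits it was not called. Control sets stood at 183, 160, 227 and 112 TPM, and lithium sets at 368, 372, 311 and 504. CCD levels were much higher, at 5668 TPM in control and 5366 under lithium, with a log2 fold of -0.06. Summed markers of principal cells, which belong to CCD, lay in cTAL at 183 to 415 TPM in control and 225 to 399 in lithium libraries, and those of intercalated cells at 949 to 1608 and 997 to 1538. The difference of the Defb1 effect between segments was 1.41 (SE 0.213, limma adjusted p = 5.72e-07, and 0.00611 on set means).

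Defb29, another defensin, rose in cTAL from 74.5 ± 24.3 to 132 ± 45.6 TPM (SD, n = 12 and 10) and fell in CCD from 46.4 to 17.3. Its log2 fold in cTAL was 0.80 (SE 0.186, limma adjusted p = 0.0377), and its difference between segments was 2.30 (limma adjusted p = 0.025 on set means). Wfdc1, which encodes a secreted protein with a protease-inhibitor fold, ran from 44.3 to 127 TPM in control and from 80.1 to 204 in lithium libraries, with a log2 fold of 0.83 (SE 0.169, limma adjusted p = 0.0177). Its groups overlapped in single libraries and not in set means. Fxyd1, phospholemman, a regulator of the sodium pump, was 10.3 to 25.9 TPM in every control. Lithium libraries 1 to 7 held 73.9 to 338 TPM, and lithium libraries 8 to 10 held 9.76 to 16.6. Its log2 fold was 2.16 over libraries (SE 0.496, limma adjusted p = 0.036), 3.25 without lithium set 4, and -0.25 when control set 4 and lithium set 4 were compared alone. Kng2, a kininogen, rose by 1.57, Tnni1, a troponin, by 1.30, and Mlana, a melanosome protein, by 1.15. Smaller rises were those of Ccl27, a chemokine, with 0.69, and of Bre with 0.51, Chchd1 with 0.49, Tmco1 with 0.38 and Sbspon with 0.28. None of the 13 higher genes belonged to any of the 39 lists.

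Of the other large falls, Angptl4, an inhibitor of lipoprotein lipase that is induced by fatty acids and fasting, varied with the set. Control set 3 lay at 0.77 to 2.51 TPM, within the lithium range of 0.28 to 4.61, while the other 9 control libraries lay at 11.3 to 80.4. Its log2 fold was -2.73 (SE 0.563, limma adjusted p = 0.0193), and on set means the adjusted p was 0.202. Igf1, a growth factor, went from 36.0 ± 27.1 to 7.00 ± 4.51 TPM (SD, n = 12 and 10), with -1.87 (limma adjusted p = 0.0414), and control libraries 1, 6 and 11 lay within the lithium range. On set means its adjusted p was 0.613. An unnamed transcript, Rn50_7_1165.1, lay at 171 to 807 TPM in control. It stood at 4.49 to 8.11 TPM on average in lithium sets 1 to 3 and at 585 TPM in lithium set 4, so its log2 fold of -4.15 turned to 1.09 when control set 4 and lithium set 4 were compared alone.

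Fatty acid oxidation was the other list with several members that fell. Of 19 tested, 18 had a negative fold, where 7660 of all 11702 genes did. The median was -0.19 against -0.08 for all genes tested. Acads, Acadvl and Acaa2 fell, where 0.59% of all genes did. All encode enzymes of mitochondrial beta-oxidation. Acads, for short chains, lay at 46.2 to 86.7 TPM in control and 27.3 to 53.9 in lithium libraries. Control library 5 was the 1 control within the lithium range, and set means did not overlap (log2 -0.62, SE 0.122, limma adjusted p = 0.0137). Acadvl, for very long chains, went from 267 ± 33.4 to 211 ± 25.4 TPM and Acaa2, the last step of the spiral, from 525 ± 98.3 to 382 ± 38.0 (SD, n = 12 and 10). Under median-of-ratios scaling 15 of 19 were negative and 1 was called. None was called on set means, nor without control set 4 and lithium set 4, where 4 and 6 had an unadjusted p under 0.05 and the medians were -0.22 and -0.19. In CCD 11 of 19 fell over libraries, against 15.2% of all genes, with a median of -0.21. On set means of CCD 1 fell, against 1.71% of all genes.

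The 2 genes without overlap between libraries also fell. Uqcrfs1, the iron-sulfur subunit of respiratory complex III, lay at a mean of 1258 ± 38.4 TPM in control (SD, n = 12) and 1096 ± 74.5 under lithium (SD, n = 10), where the highest library was at 1216 (log2 -0.20, SE 0.0457, limma adjusted p = 0.0347). It was the 1 gene of 33 tested for oxidative phosphorylation that fell, and the list's median was -0.07. Rsrp1, an arginine- and serine-rich protein, lay at 302 to 372 TPM in control and 214 to 286 under lithium (log2 -0.36, SE 0.0601, limma adjusted p = 0.00693), and it fell in CCD too, from 655 to 401 TPM. On set means their adjusted p was 0.587 and 0.179.

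The genes that make the thick ascending limb what it is were not called, where 0.701% of all genes were. For lists of this size no call is near that share. Of 20 tested salt transport genes and 17 identity genes none passed, with medians of -0.09 and -0.12. An unadjusted p under 0.05 was found for 6 and 3 of them, and for 1466 of all 11702 genes tested. Both scaling alternatives called 1 salt transport gene higher, and the fit without control set 2 called 1 lower. The median was -0.24 without control set 2 and -0.21 without lithium set 4, where the medians of all genes were -0.13 and -0.10. Umod averaged 64658 ± 11460 TPM in control and 67289 ± 9596 in lithium libraries (SD, n = 12 and 10), a log2 fold of 0.07 (SE 0.109, limma adjusted p = 0.838). Slc12a1 lay at 1576 to 4215 TPM in control and 1841 to 4103 under lithium (log2 -0.08, SE 0.176, limma adjusted p = 0.888). For Kcnj1 the log2 fold was -0.19 (SE 0.119). For Bsnd the levels were 320 ± 43.3 and 270 ± 15.9 TPM (log2 -0.23, SE 0.0693, limma adjusted p = 0.143). Set means did not overlap for Bsnd. Kcnj16, a basolateral potassium channel subunit, lay at 165 to 303 TPM in control and 193 to 424 under lithium (log2 0.40, SE 0.128, limma adjusted p = 0.176). Of the identity genes, Sostdc1, a secreted antagonist of BMP and Wnt, had a log2 fold of 0.46 (SE 0.15) and Ppp1r1b, an inhibitor of protein phosphatase 1, -0.85 (SE 0.307). Their limma adjusted p was 0.19 and 0.242. A missed threshold does not show that these genes were equal, and their standard errors bound what could be seen.

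**Figure D4:**
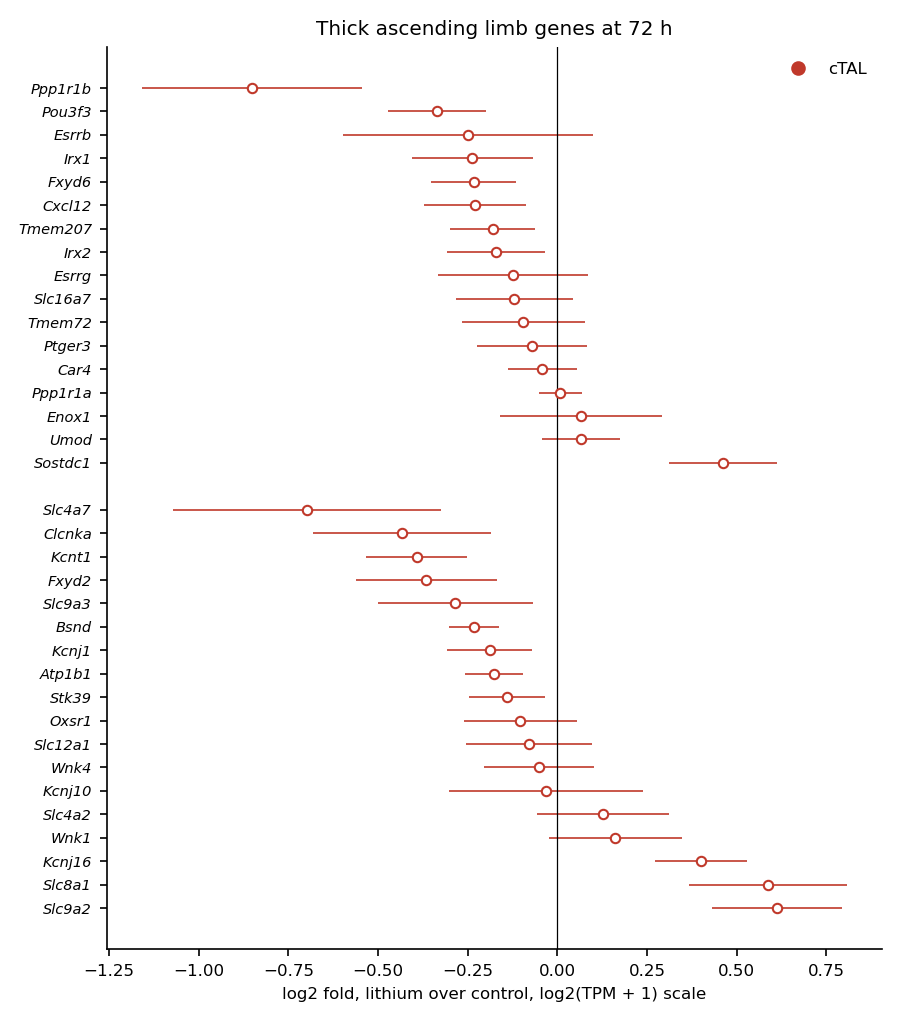
Log2 fold of lithium over control in cTAL for tested identity genes (upper block) and salt transport genes (lower block) of the thick ascending limb, leaving out genes not reported here; points are estimates and whiskers 1 standard error, and open symbols are genes not called. All symbols are open, with Umod at 0.07 and Slc12a1 at -0.08.

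Genes of the calcium and magnesium pathway were not called either. With 0.701% of all genes called, no call is near that share, here and for the lists below. Of 15 tested genes of this pathway none passed, 2 had an unadjusted p under 0.05, and the median was 0.08. Cldn16, Cldn10 and Cldn19, claudins that form the paracellular pores, had log2 folds of 0.11, 0.05 and -0.08, and the calcium-sensing receptor Casr had 0.08. Cldn14, a claudin that closes the calcium pore, came closest. It lay at 1.56 to 26.0 TPM in control and 9.60 to 43.9 in lithium libraries, with set means that did not overlap (log2 1.5, SE 0.373, limma adjusted p = 0.0597, and 0.141 on set means). Cldn19 differed between segments: it was level in cTAL, at 397 and 378 TPM, and fell in CCD from 116 to 31.1 (difference 1.80, SE 0.15, limma adjusted p = 8.3e-15, and 0.000348 on set means). Of 7 tested macula densa genes none was called, with a median of 0.61, and Slc9a2, Robo2 and Oxtr had an unadjusted p under 0.05. Of the enzymes that lithium inhibits, Inpp1 had -0.28 (SE 0.125), Impa1 0.10 (SE 0.126) and Gsk3b -0.09 (SE 0.188), and none of the 13 tested genes of that list was called. Aqp2, the water channel of the collecting duct, lay at 2.11 to 9.07 TPM in control and 1.33 to 9.68 in lithium libraries.

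No tested inflammatory gene or p53 target was called in cTAL, while members of both lists were called in CCD. Over all genes tested 0.701% were called in cTAL and 37.3% in CCD. For lists of this size no call in cTAL is near that share, here and below. Of 23 tested NF-kB and inflammatory genes none passed in cTAL, with a median of -0.12, and in CCD 16 of 24 rose and 3 fell, with a median of 0.97. Over all genes in CCD 22% rose and 15.2% fell. On set means of CCD 14 inflammatory genes rose and none fell, where 6.12% of all genes rose and 1.71% fell. Of 18 p53 targets none passed, with -0.09, against 11 of 19 that rose and 5 that fell in CCD. On set means of CCD 8 p53 targets rose and 1 fell. The difference itself was lower in cTAL for 16 of 27 inflammatory genes and 9 of 19 p53 targets over libraries, against 11.8% of all genes, and higher for 0 and 2, against 3.44%. On set means it was lower for 9 and 6, against 3.34%, and higher for none. Ccl20, a chemokine for dendritic cells and lymphocytes, averaged 2.96 and 0.659 TPM in cTAL and went from 3.17 to 129 in CCD (difference -5.88, SE 0.508, limma adjusted p = 0.000348 on set means). Phlda3, a p53 target, lay at 1.66 and 1.02 TPM in cTAL and went from 1.93 to 31.8 in CCD (difference -4.04). Mmp2, a matrix metalloproteinase, differed by -4.90, Pdlim1, an actin-binding adaptor, by -4.02, Lcn2, the injury marker lipocalin 2, by -3.71, and Ns5atp9, a partner of Pcna, by -3.71. Cdkn1a, the cell cycle inhibitor p21, was 12.1 ± 8.19 and 9.16 ± 9.89 TPM in cTAL (SD, n = 12 and 10), with a difference of -3.21 (limma adjusted p = 0.0421 on set means). Of 14 tested antigen presentation genes none was called in cTAL, with a median of 0.12. In CCD 12 of 13 rose over libraries, and 6 rose on set means. The difference was lower in cTAL for 8 of 14 over libraries and 6 on set means. Cd74, the class II invariant chain and an immune marker gene, already stood at 1293 to 3959 TPM in control and 1150 to 3631 in lithium cTAL, against means of 133 and 247 in CCD, beside the higher immune marker level of cTAL. Its part in these differences was not tested. Of 20 tubular injury genes none was called in cTAL (3 higher and 4 lower at an unadjusted p under 0.05). In CCD 12 of 20 rose and 1 fell over libraries, and 8 rose on set means. Spp1, osteopontin, came closest, at 116 ± 42.4 and 62.4 ± 30.6 TPM (SD, n = 12 and 10, log2 -0.98, SE 0.259, limma adjusted p = 0.085).

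Over all genes, the lithium effect differed between segments for 2000 of 13083 genes, or 15.3%, with 450 higher (3.44%) and 1550 lower (11.8%) in cTAL, by limma with BH adjustment over libraries. Of these 1689 were called in CCD and 68 in cTAL. On set means 485 genes differed, or 3.71%, with 48 higher (0.367%) and 437 lower (3.34%). The split moved with the scaling, to 857 higher and 1109 lower by median of ratios and to 1011 and 1166 by quantiles. Genes that rose in CCD had a median log2 fold of -0.02 in cTAL, and those that fell in CCD had -0.10, with -0.08 over all genes tested in cTAL. Of the 69 genes that fell in cTAL 66 were tested in CCD, where 45 rose and 9 fell, against 22% and 15.2% of all genes there. For 57 of the 69 the difference between segments was called over libraries, and for 44 on set means. That difference contains the cTAL values that picked the 69 genes. The counts of 57 and 44 thus follow in part from the choice and are no separate support.

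**Figure D5:**
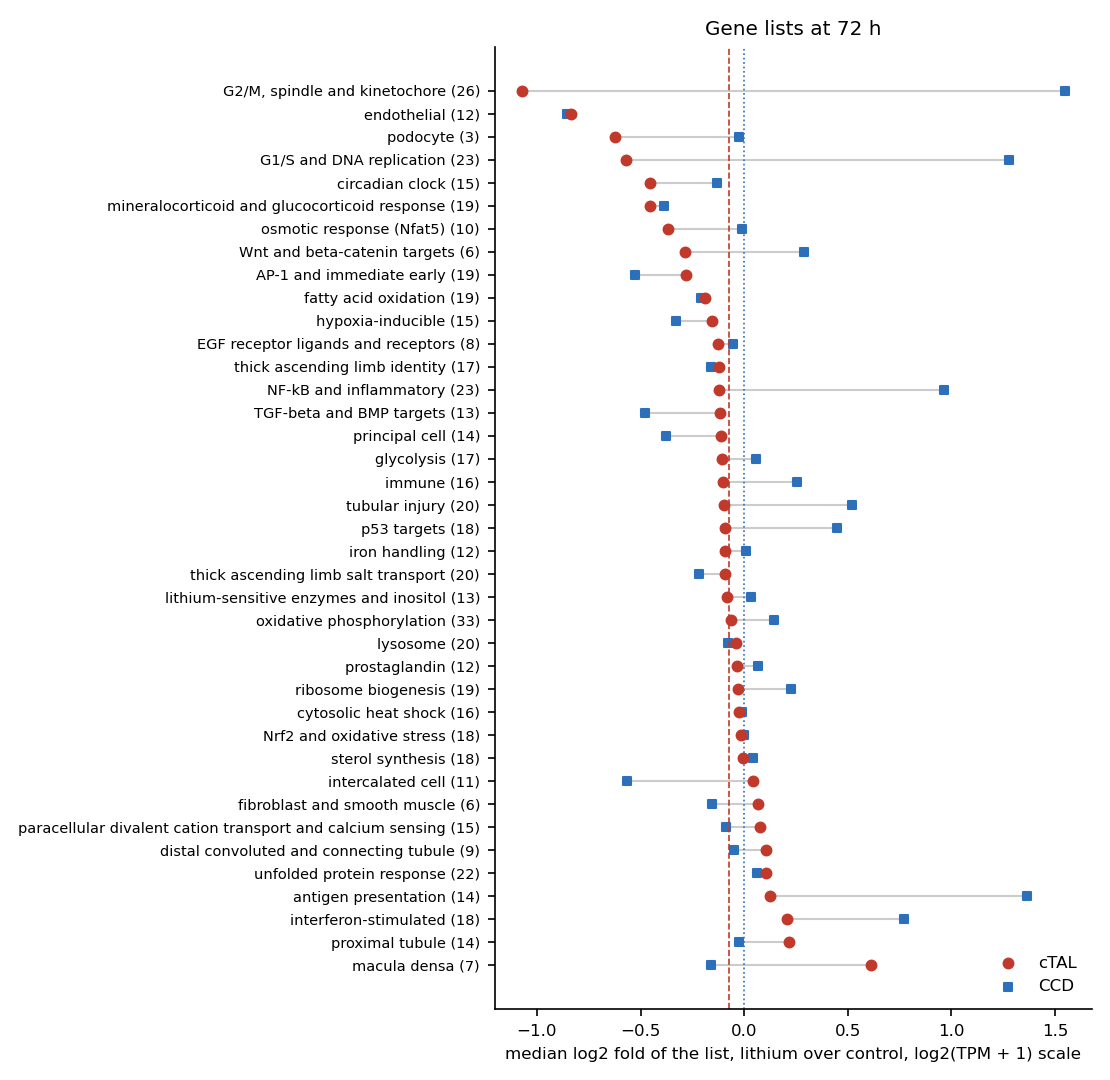
Median log2 fold of lithium over control for 39 gene lists, with the number of members tested in cTAL in brackets; red circles are cTAL, blue squares CCD, and the dashed red and dotted blue lines are the medians of all genes tested. The G2/M list lies at -1.07 in cTAL and 1.55 in CCD, the widest gap of the 39.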

How the data were processed

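The deposited values are TPM per gene and library, given by the authors in 1 table of 32754 genes and 75 libraries. Per the submitters' processing notes, STAR 2.5.2b, RSEM 1.2.31 and the build Rnor_6.0 were used. TPM keeps no read depth: depth is unknown, no counting interval is given, and precision comes from the spread between libraries. Of 706 listed symbols 686 matched the table by symbol and 2 by a synonym.

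Libraries were grouped by label. Groups were compared by limma 3.58.1 (R 4.3.3) on log2 values with a pseudocount of 1 and a trend of variance on the mean, two-sided, with BH over all genes tested and a call at an adjusted p under 0.05. Genes entered with at least 1 TPM in as many libraries as the smaller group holds. The difference between segments was an interaction term over the 4 groups at 72 h. Set means averaged log2 values per set and segment, and both segments were fitted together. The cTAL and CCD means of a set entered as separate units, also in the test of the difference between segments. Sets were found by average linkage over 12 gene symbols chosen after their values were seen (Python 3.11.15, scipy 1.17.1). Of these symbols RT1-CE16 had more than 1 entry, and each entry was used. The number of sets was fixed at 4 for control and 4 for lithium libraries, with both segments pooled.

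The comparison, the 39 lists and the panel of genes were chosen with earlier results of these data known. Named genes were that panel, the 15 strongest rises and 15 strongest falls among called genes with a symbol and at least 5 TPM in the higher group, the 4 members with the smallest p in each list, the 10 largest called differences between segments, and genes called on set means. Rsrp1 and Rassf10 were named after their values were seen. Alternatives were other pseudocounts, filters, scalings, units of replication and covariates, and leaving out each set. Some genes of the panel and lists are not reported here by name, though list counts include them. The fits were tested on simulated data. The cDNA kit keeps no strand, so overlapping genes and close paralogs are uncertain.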

Additional observations from a re-analysis of the deposited data

Results flagged for a closer look

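A single lithium library lay far from the other 9 in 3 of 55 genes examined, and chance gives about 1 in 20. Cdk1 was 0.21 TPM in lithium library 9, where the next lowest was 3.10. Cldn19 was 486 TPM in lithium library 5, where the next was 389. Ctrb1, a chymotrypsinogen that rose in CCD, was 0.05 TPM in lithium library 8 and listed at 0 in the other 9.

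The lithium effect differed between cTAL and CCD, over libraries and on set means, in 23 of 51 genes examined. Over all genes tested 15.3% differed over libraries and 3.71% on set means. Named genes were picked with values of these data known, so a larger share among them is no result of its own. Lower in cTAL, with the log2 difference on set means, were Ccl20 (-6.46), Phlda3 (-4.16), Tubb6 (-3.91), Ube2c (-3.80), Ccna2 (-3.75), Pbk (-3.51), Rrm2 (-3.49), Cdkn3 (-3.43), Cdk1 (-3.42) and Lcn2 (-3.39). The same held for Cdca3 (-3.31), Kif20a (-3.29), Cdkn1a (-3.24), Cxcl10 (-3.22), Kifc1 (-2.97), Prc1 (-2.95), Spc25 (-2.92), Mki67 (-2.24) and Pcna (-1.25). Higher in cTAL were Defb29 (2.08), Cldn19 (1.76), Defb1 (1.30) and Sbspon (0.60).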

How the results depend on the processing

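The count of genes called in cTAL was 82 in the fit over libraries and depended on the unit of replication. It was 1 on set means, 0 with sets as a random block (449 genes at an unadjusted p under 0.05) and 0 with the replicate block (1318 at an unadjusted p under 0.05), and limma was the only tool run. It was 31 without a filter on low values, 53 at a mean of at least 5 TPM and 306 in a joint fit of the 4 groups. Leaving out each set gave 1 to 223 calls: 23 without lithium set 1, 1 without lithium set 2 or without control set 4, 196 without control set 3 and 223 without lithium set 3. Of 3 alternatives added after seeing the data, the endothelial covariate gave 2, leaving out control set 4 and lithium set 4 gave 6, and those sets alone 658. The difference between segments, called for 2000 genes, was called for 485 on set means, 853 with sets as a random block and 1318 with the replicate block. The cause of these changes was not tested. Replicate numbers showed no pairing in cTAL, with correlations of same-numbered deviations from -0.14 to 0.37. Those sets alone reversed Fxyd1 (-0.25), Rn50_7_1165.1 (1.09) and RT1-Bb (-1.02). The other alternatives kept both counts within 1.5 times, though a like count need not hold the same genes. Of the G2/M genes 12 of 26 were called lower in the main fit. It was 7 of 23 without control set 2, 5 of 29 without lithium set 4 and 3 of 28 without lithium set 1. Without control set 1, control set 3 or lithium set 3 it was 14 of 25, 18 of 23 and 19 of 28. Depth is unknown, and genes near 1 TPM are the least precise.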

Other observations

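Genes of the clock and of the glucocorticoid response leaned lower under lithium in cTAL, with none called, where 0.701% of all genes were. Of 15 clock genes 13 had a negative fold, with a median log2 of -0.46, and 6 had an unadjusted p under 0.05, all lower. Over all 11702 genes tested 7660 had a negative fold, with a median of -0.08. Of these 11702 genes 1163 were lower at an unadjusted p under 0.05. On set means the clock median was -0.25. Per2, a clock repressor, lay at 3.39 to 12.9 TPM in control and 2.43 to 6.88 in lithium libraries (log2 -0.77, SE 0.215, limma adjusted p = 0.105). Of 19 glucocorticoid and mineralocorticoid response genes 16 had a negative fold, with a median of -0.46 as well, which in both lists is the value of the shared gene Per1. Pdk4, a kinase that turns off pyruvate oxidation, lay at 23.2 to 183 TPM in control and 4.13 to 56.4 in lithium libraries. Control set 4 alone held 136 to 183 TPM, and the other 8 controls lay at 23.2 to 74.4, overlapping the lithium range (log2 -1.59, SE 0.441, limma adjusted p = 0.105). The time of day of dissection is not given in the sources used here, and its part in these values was not tested.

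The immediate early genes Fos and Egr1 stood high in control set 4. Fos, a subunit of AP-1, ran from 3.21 to 240 TPM in control and from 2.20 to 44.1 in lithium libraries. Egr1 ran from 5.09 to 457 and from 10.8 to 54.0. Control set 4 held 51.4 to 240 TPM of Fos and 422 to 457 TPM of Egr1. The other 8 controls lay at 3.21 to 11.5 and 5.09 to 25.9, and their ranges overlapped those of the lithium libraries. Of 19 tested genes of the AP-1 and immediate early list none was called in cTAL, where 0.701% of all genes were. The list's median was -0.28.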
